A study of Mus musculus with 4 samples.

Results

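The miR-17-92 cluster and its paralog, the miR-106a-363 cluster, were followed here through 9 of the 566 mouse miRNA probes of a nanoString nCounter panel, an assay that counts colour-coded barcodes hybridised to single miRNAs. The probes were taken by name: the joint probes mmu-miR-17+mmu-miR-106a and mmu-miR-20a+mmu-miR-20b, and mmu-miR-18a, mmu-miR-18b, mmu-miR-19a, mmu-miR-19b, mmu-miR-92a, mmu-miR-92b and mmu-miR-363. The joint probes are called the 17-with-106a and the 20a-with-20b probe below. miR-92b is a relative of miR-92a encoded outside both clusters. Of these 9 probes, 4 reached 30 normalized counts in at least 2 samples and were tested, and 5 stayed below 30 in every sample.

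Oncogenic epidermal cells came from adult R26stoprtTA/+ Col-tetO-YAPS127A/+ K14-Cre mice, in which Cre, driven by the keratin 14 promoter of basal keratinocytes, permits doxycycline-dependent expression of YAP S127A, a constitutively active form of the Hippo pathway effector. Normal epidermal cells came from R26stoprtTA/+ Col-tetO-YAPS127A/+ mice without Cre, so both groups carried the rtTA and YAP alleles and both drank doxycycline at 1 mg/ml for 8 days. The labels describe the induced cells as tumorigenic on grafting and title them tumours, but the protocol takes epidermal cells, loosened from back skin with trypsin, at the end of the induction. There were 2 samples per group. Nothing in the labels says that they came from separate animals, and p-values therefore measure the spread between samples that may be technical repeats. In bulk RNA of this kind, fewer cells of a type and less miRNA per cell cannot be told apart.

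Each cluster is transcribed as 1 long precursor from which Drosha and Dicer cut several mature miRNAs. The miR-17-92 transcript is induced by Myc and E2F factors, is amplified in lymphomas, and is known for promoting proliferation and survival. The mature miRNAs fall into families by their seed, the bases that pair with target transcripts: the miR-17 family represses the cell cycle inhibitor Cdkn1a and the TGF-beta receptor Tgfbr2, the miR-18 family has been reported to repress Ctgf, a transcript that YAP induces, the miR-19 family is known for promoting cell survival, and the miR-92 family represses, among others, the integrin Itga5 in endothelial cells.

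All 11 mature miRNAs behind the 9 probes were found in RefSeq (build GRCm38.p6), and they are shown because the families and the shared probes follow from their letters. Capitals mark the seed, bases 2 to 8 from the 5′ end. The miR-17 seed is carried by both shared probes:
miR-17: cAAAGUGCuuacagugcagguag
miR-106a: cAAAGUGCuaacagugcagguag
miR-20a: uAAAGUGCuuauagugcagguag
miR-20b: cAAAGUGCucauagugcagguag

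The miR-18 family has another base within the seed, and its miRNAs were measured by separate probes:
miR-18a: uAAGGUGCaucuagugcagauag
miR-18b: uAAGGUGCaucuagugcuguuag

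The miR-19 family was measured by separate probes as well:
miR-19a: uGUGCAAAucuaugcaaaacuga
miR-19b: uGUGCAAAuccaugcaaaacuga

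The miR-92 seed is shared by miR-92a, miR-92b and miR-363, and by miR-25 of the miR-106b-25 cluster, which is shown for comparison:
miR-92a: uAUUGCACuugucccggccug
miR-92b: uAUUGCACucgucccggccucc
miR-363: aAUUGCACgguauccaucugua
miR-25: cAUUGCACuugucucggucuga

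Counted from the 5′ end, miR-17 and miR-106a differ only by U10A, and miR-20a and miR-20b by U1C and U10C. miR-19a and miR-19b, which have a probe each, differ by U11C alone, as few bases as miR-17 and miR-106a. miR-17 and miR-20a differ by C1U and C12U. Signal shared between such close relatives was not tested, so the values of miR-17 against miR-20a and of miR-19a against miR-19b carry that uncertainty.

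The deposited signal also cannot separate the clusters. In the RefSeq annotation the first cluster lies on chromosome 14, plus strand, in the order Mir17, Mir18, Mir19a, Mir20a, Mir19b-1 and Mir92-1, within 836 bases. The paralog lies on chromosome X, minus strand, in the order Mir106a, Mir18b, Mir20b, Mir19b-2, Mir92-2 and Mir363, within 875 bases. miR-19b and miR-92a are made from both with the same mature sequence, and miR-17 and miR-20a share their probes with a miRNA of the other cluster. Only miR-18a and miR-19a were specific to the first cluster and only miR-18b and miR-363 to the second, and among these miR-19a was the one probe above 30.

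The recovered miRNA barcode counts were 230284 and 53709 in the oncogenic samples and 189058 and 156092 in the normal samples, so oncogenic replicate 2 was the shallowest and carries the widest counting error. The keratinocyte markers miR-205, miR-203 and the miR-200 family were all detected, with a summed signal, mostly of miR-205, of 40376 and 34277 normalized counts in oncogenic and 41068 and 58005 in normal samples. Of these 7 markers, 6 had negative log2 differences, oncogenic minus normal (58.9% of all 124 tested miRNAs). The median of the 7 was -0.79, beside -0.19 over all tested, and 0 passed (4.03% of all tested). For 4 of the 7 both oncogenic values were below both normal values, and for 1 above them (38.7% and 12.9% of all tested). Several markers of other cells were lower after induction: the 3 red blood cell markers summed to 46.3 and 47.6 in oncogenic against 942 and 814 in normal samples, the 2 endothelial markers to 11.4 and 17.6 against 223 and 400, and the 2 melanocyte markers to 28.0 and 17.6 against 345 and 171. Both oncogenic values were below both normal values for all 3 red blood cell, both endothelial and 1 of the 2 melanocyte markers. By the same measure 4 of 6 white blood cell markers were lower and 1 higher (sums of 334 and 440.3 in oncogenic against 621 and 492 in normal samples), 3 of 6 dermal and stromal markers were lower (161 and 82.8 against 221 and 218), and 1 of 4 muscle markers was lower and 1 higher (34.9 and 44.0 against 44.8 and 51.7). Over all 124 tested miRNAs, 38.7% were lower and 12.9% higher by this measure. Counts such as that of the dermal markers are near this background, which covers tested miRNAs only. The marker counts also hold probes below the test filter: 2 of the 6 dermal and 0 of the 4 muscle markers were tested. No marker was at 0. The part of these cells in the values of the cluster miRNAs, some of which blood and endothelial cells also make, was not tested.

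The joint probes of the miR-17 family had the highest summed signal of the clusters, and neither passed the test. The 20a-with-20b probe, mmu-miR-20a+mmu-miR-20b, had the highest signal of the 9 and read 974.8 and 882 normalized counts in oncogenic replicates 1 and 2, and 983 and 1010.3 in normal replicates 1 and 2. Each oncogenic sample was below each normal sample, but only by 0.822% to 12.7%, and in oncogenic replicate 1 by less than the counting error, whose 95% Poisson interval ran from 918 to 1034. The log2 difference, oncogenic minus normal, was -0.10 (SE 0.22, 95% interval -0.70 to 0.49), with an adjusted p of 0.841 by limma and Benjamini-Hochberg adjustment over 124 miRNAs. By mean signal this probe ranked at position 23 of the 566 miRNA probes.

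The 17-with-106a probe, mmu-miR-17+mmu-miR-106a, read 300.5 and 403 normalized counts in the oncogenic samples, and 212 and 336 in the normal samples. The groups overlapped, since normal replicate 2 lay above oncogenic replicate 1. Its mean was 352 ± 72.7 in oncogenic and 274 ± 87.8 in normal cells (SD, n = 2 each). In the limma fit the log2 difference was 0.38 (SE 0.35, 95% interval -0.56 to 1.33, adjusted p = 0.638), and it was 0.05 without normal replicate 1 and 0.72 without normal replicate 2. In each group the sample numbered 2 was the higher one.

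Summed over both probes, the miR-17 seed carried nearly equal signal in the groups, 1281 ± 7.38 normalized counts in oncogenic and 1270.4 ± 107 in normal cells (SD, n = 2 each). The individual sums were 1275 and 1286 in the oncogenic samples, which lay inside the range of 1195 to 1346 in the normal samples.

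The miR-19 family read higher in both oncogenic samples. The miR-19 miRNAs are the main drivers of Myc-induced lymphoma growth within miR-17-92 in mouse models. mmu-miR-19a read 319.7 and 218 normalized counts in oncogenic samples against 196 and 180.0 in normal samples. mmu-miR-19b read 362.5 and 299 in oncogenic samples against 229 and 261 in normal samples. For neither miRNA did the groups overlap, and both oncogenic samples likewise exceeded both normal samples for 12.9% of all tested miRNAs. Oncogenic replicate 2 was the nearer one to the normal samples for both miR-19 miRNAs. Together they summed to 600.0 ± 116 in oncogenic and 433 ± 11.2 in normal cells (SD, n = 2 each).

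Neither difference passed the test. The log2 difference of miR-19a was 0.49 (SE 0.31, 95% interval -0.35 to 1.33), with a limma adjusted p of 0.449, and that of miR-19b was 0.43 (SE 0.26, 95% interval -0.28 to 1.13), with a limma adjusted p of 0.426. Without oncogenic replicate 1 they were 0.22 and 0.29, and without oncogenic replicate 2 they were 0.76 and 0.57, so the size of the miR-19a value rested largely on oncogenic replicate 1. The counting intervals of miR-19a in oncogenic replicate 2, from 182 to 260.4, and in normal replicate 1, from 171 to 223, overlapped.

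**Figure D1:**
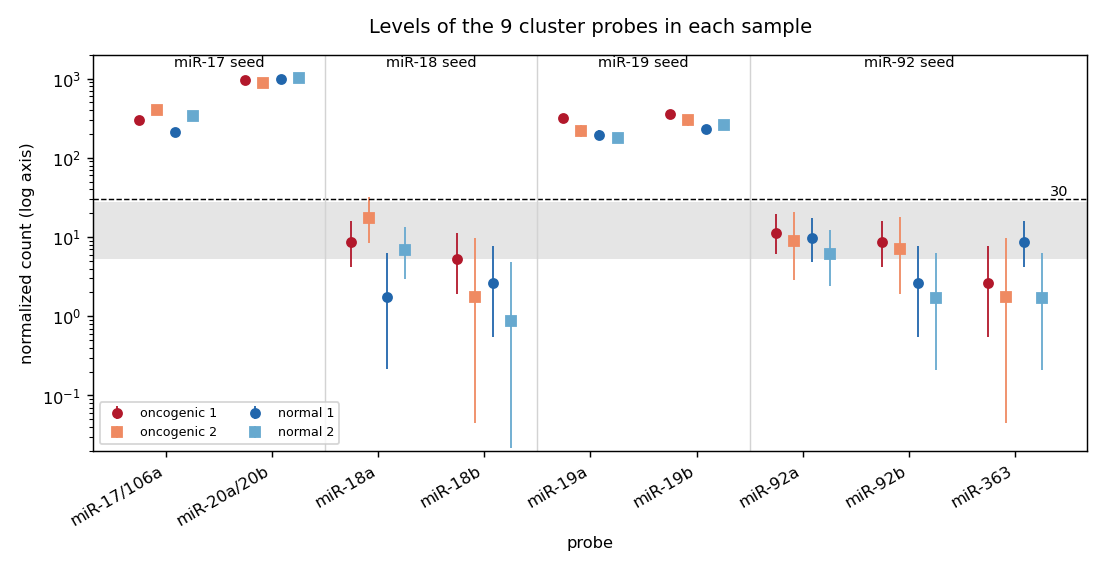
Normalized counts (log axis) of the 9 cluster probes in each of the 4 samples, grouped by seed, with bars for 95% Poisson counting intervals; the dashed line marks 30 and the grey band runs from the lowest sample median to the highest value of the viral probes. The 4 probes of the miR-17 and miR-19 seeds lie between 180.0 and 1010.3, and the other 5 lie below 30 in all samples.

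The probes of miR-18a, miR-18b, miR-92a, miR-92b and miR-363 read at background level. mmu-miR-18a read 8.74 and 17.6 normalized counts in oncogenic and 1.76 and 6.89 in normal samples, which rest on 10 and 10 barcodes against 2 and 8. Viral probes, which have no target in uninfected mouse cells, gave a level to read this against: 11 and 2 of the 33 viral probes stood at or above miR-18a in the oncogenic samples, and 33 and 16 in the normal samples. Both oncogenic values exceeded both normal values, and all 4 lay below the highest viral probe of the same sample. miR-18b rested on 6 and 1 barcodes in oncogenic and 3 and 1 in normal samples.

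mmu-miR-92a, made from both clusters, read 11.4 and 8.81 normalized counts in oncogenic and 9.66 and 6.03 in normal samples, and the groups overlapped. miR-92b read 8.74 and 7.05 in oncogenic and 2.64 and 1.72 in normal samples, without overlap, on 10 and 4 barcodes against 3 and 2. miR-363 read 2.62 and 1.76 in oncogenic and 8.78 and 1.72 in normal samples. The highest viral probe reached 18.3 and 22.9 in the oncogenic and 17.6 and 27.6 in the normal samples, above the value of each of these 5 probes in the same sample, so no fold is given for them. Whether these miRNAs are scarce in epidermal cells or their probes capture poorly was not tested.

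Among all 6 panel probes with the miR-92 seed, the cluster members therefore held a small share of the signal, 4.13% and 3.57% in oncogenic and 2.12% and 0.878% in normal samples. Nearly all the rest was miR-25, from the miR-106b-25 cluster. The remaining probes with this seed were miR-32, at 43.7 and 8.81 in oncogenic and 27.2 and 27.6 in normal samples, and miR-367, below 30 throughout. For the miR-17 seed the members held most of the signal, 82.0% and 87.6% in oncogenic and 78.0% and 82.1% in normal samples, and the rest came from miR-106b and miR-93. These shares are of barcode signal, and probes can differ in efficiency.

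Of the 4 tested cluster probes, 0 passed the adjusted threshold of 0.05, where 4.03% of all 124 tested miRNAs passed, each of them lower in oncogenic cells. At an unadjusted p under 0.05 there were also 0 of 4, against 24.2% of all tested, and 0 passed in edgeR or DESeq2 on the recovered counts. The oncogenic samples both exceeded the normal samples for 2 of the 4 (12.9% of all tested) and were both below them for 1 of the 4 (38.7% of all tested). Differences were positive for 3 of the 4 (41.1% of all tested) and negative for 1 (58.9% of all tested). The median difference of the 4 was 0.41, beside -0.19 over all tested miRNAs, and the 4 intervals, each including 0, leave room for changes of either sign.

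**Figure D2:**
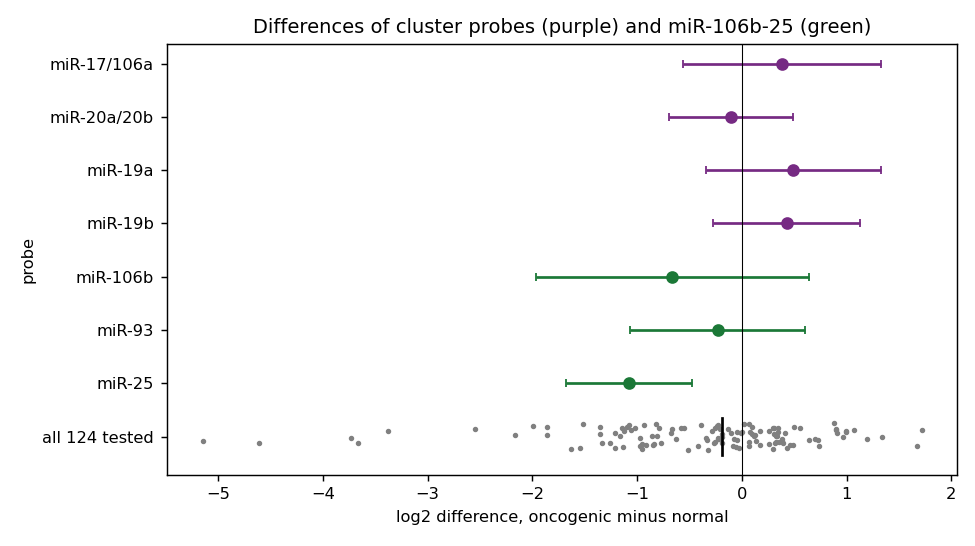
Log2 differences, oncogenic minus normal, of the 4 tested cluster probes and the 3 probes of the miR-106b-25 cluster, with 95% intervals from limma, above the differences of all 124 tested miRNAs (grey points, black bar at the median of -0.19). The intervals of the 4 cluster probes all cross 0, and that of miR-25 lies below it.

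Scaling between samples moved these differences, and for both joint probes it decided the sign. After subtraction of the median over all tested miRNAs, the differences were 0.57 for the 17-with-106a probe, 0.09 for the 20a-with-20b probe, 0.68 for miR-19a and 0.62 for miR-19b, values that a scaling with 1 factor per sample leaves nearly fixed by construction (under quantile normalization they were 0.65, 0.083, 0.82 and 0.66). The differences without this subtraction for miR-19a and miR-19b were positive under all 7 other scalings, down to 0.08 and 0.02 with the 4 mRNA probes. The difference of the 20a-with-20b probe was positive under 3 and negative under 4 of them, and that of the 17-with-106a probe was negative under 1, at -0.024 with the mRNA probes. The scalings themselves moved the median of all tested miRNAs between -0.60 and 0.34. None of the 4 probes passed the threshold under any of them.

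**Figure D3:**
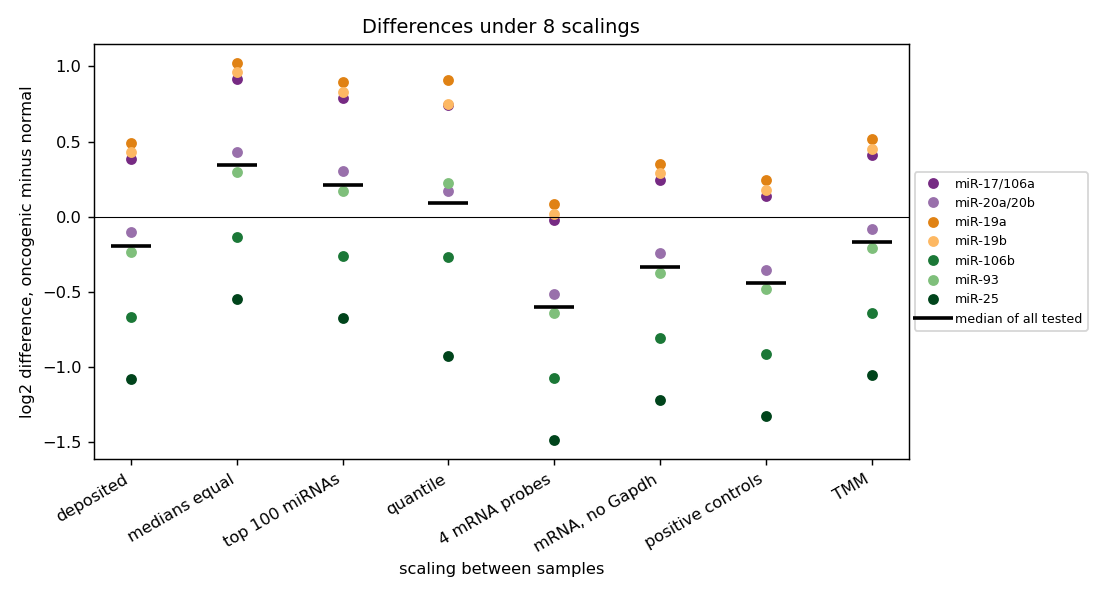
Log2 differences, oncogenic minus normal, of the 4 tested cluster probes and the 3 miR-106b-25 probes on the deposited scale and under 7 other scalings between samples, with a black bar at the median of all tested miRNAs. Points and bar shift together, since all but the quantile setting apply 1 factor per sample, and the zero line is crossed by the bar, by both joint probes and by miR-93.

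Ratios between probes within 1 sample do not depend on scaling between samples. The 20a-with-20b probe exceeded miR-19b by a factor of 2.69 and 2.95 in oncogenic against 4.29 and 3.87 in normal samples. It exceeded miR-19a by a factor of 3.05 and 4.04 in oncogenic against 5.02 and 5.61 in normal samples. For both ratios the oncogenic samples lay below the normal samples. In a limma fit of all other tested miRNAs relative to the 20a-with-20b probe, which was added after the data were seen, the relative log2 difference was 0.53 for miR-19b (SE 0.21, adjusted p = 0.215) and 0.59 for miR-19a (SE 0.27, adjusted p = 0.252). Neither passed, and 2.44% of the 123 other miRNAs did. With the 17-with-106a probe as the base, the relative differences were 0.11 for miR-19a (95% interval -1.25 to 1.47), 0.04 for miR-19b (95% interval -1.29 to 1.38) and -0.49 for the 20a-with-20b probe (95% interval -1.91 to 0.94). The limma adjusted p values were 0.983, 0.983 and 0.793, and 5.69% of the 123 passed.

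Some ratios within the cluster followed the replicate number rather than the condition. The 17-with-106a probe stood to miR-19a as 0.940 in oncogenic and 1.08 in normal replicate 1, but as 1.85 in oncogenic and 1.87 in normal replicate 2. The 95% binomial intervals of the ratio were 0.809 to 1.09 and 0.897 to 1.30 in the samples numbered 1, and 1.48 to 2.32 and 1.57 to 2.22 in those numbered 2, so the gap exceeded counting error. Against miR-19b the same probe gave 0.829 in oncogenic and 0.923 in normal replicate 1, and 1.35 in oncogenic and 1.29 in normal replicate 2. The ratio of miR-19a to miR-19b was 0.882 and 0.729 in oncogenic and 0.854 and 0.690 in normal samples, and here the counting intervals of the samples in each group overlapped. The labels do not say what a replicate number stands for, and whether it marks a shared batch was not tested. A fit with the replicate number as a block is given in the last section.

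**Figure D4:**
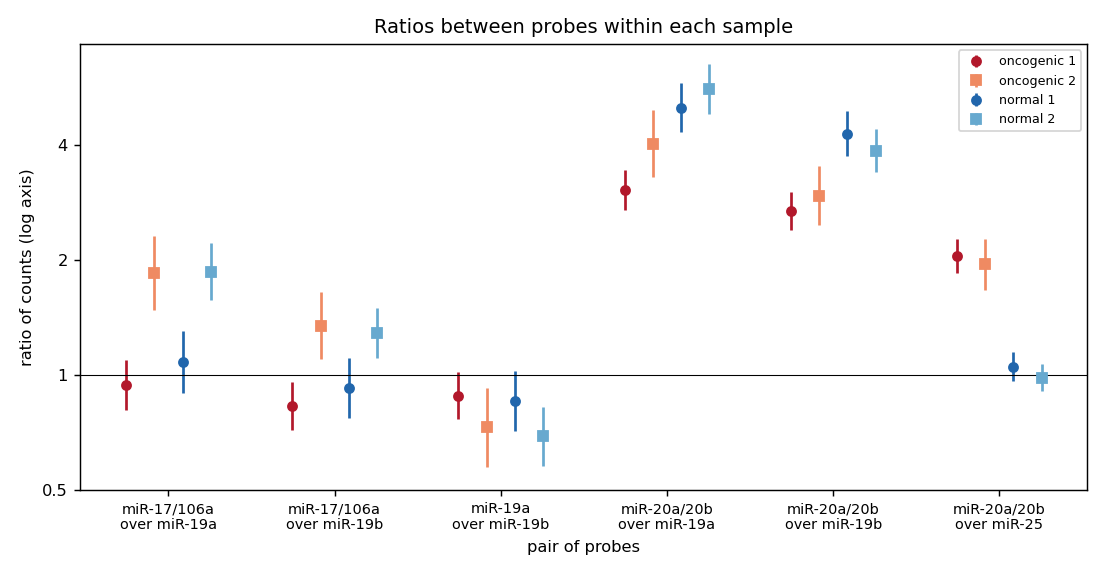
Ratios of recovered counts between pairs of probes within each of the 4 samples (log axis), with bars for 95% binomial counting intervals. The ratios of the 17-with-106a probe to miR-19a and miR-19b separate the samples numbered 1 (circles) from those numbered 2 (squares), while the ratios of the 20a-with-20b probe to miR-19a, miR-19b and miR-25 separate oncogenic (red) from normal (blue).

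The third paralog, the miR-106b-25 cluster, carries the miR-17 seed in miR-106b and miR-93 and the miR-92 seed in miR-25, and served as a comparison with the same families. All of its 3 members were tested and 0 passed (1, miR-25, at an unadjusted p under 0.05, against 24.2% of all tested), and all 3 had negative differences (58.9% of all tested), of -0.66 for miR-106b, -0.23 for miR-93 and -1.08 for miR-25. miR-25 read 475 and 453 in oncogenic against 935 and 1028 in normal samples (SE 0.22, limma adjusted p = 0.0998), and its limma adjusted p was 0.0444 without oncogenic replicate 1, 0.0507 without oncogenic replicate 2, 0.546 without normal replicate 1 and 0.578 without normal replicate 2. Each of these fits assumes that the lone sample of a group varies like the other group. The difference of miR-93 was positive under 3 of 7 other scalings, while miR-106b and miR-25 were negative under all 7. Per sample, the 20a-with-20b probe exceeded miR-25 by a factor of 2.05 and 1.95 in oncogenic against 1.05 and 0.982 in normal samples. In the fit relative to the 20a-with-20b probe the value for miR-25 was -0.97 (SE 0.18, adjusted p = 0.0884). Over all 4 samples and with no block, neither miR-25 difference passed.

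By profile over the 4 samples, each centred on its own mean, no tested member was nearest to another member. The nearest miRNA was miR-574-5p for the 17-with-106a probe (root mean square distance 0.06 on the log2 scale), miR-203 for the 20a-with-20b probe (0.06), let-7i for miR-19a (0.15) and let-7e for miR-19b (0.05). The median distance to the 123 other tested miRNAs was between 0.48 and 0.62. miR-19b was in position 2 for miR-19a, miR-19a in position 5 for miR-19b, and the nearest member stood in position 17 for the 17-with-106a probe and 30 for the 20a-with-20b probe. With 4 samples, such likeness only describes these profiles.

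miRNAs linked to the clusters by regulation or by seed were read beside them. Of 18 miRNAs reported in the literature as repressed by Myc, the activator of miR-17-92, 16 were tested. Of these, 13 had negative (58.9% of all tested) and 3 positive differences, with a median of -0.83 beside -0.19 over all tested, and 1 passed as lower (4.03% of all tested). This was miR-146a, which restrains innate immune signalling and is also in the list of white blood cell markers (39.9 ± 5.81 in oncogenic against 182 ± 15.5 normalized counts in normal cells, limma adjusted p = 0.0472). It passed under 2 of the 7 other scalings, those on mRNA probes, and did not under the other 5 (adjusted p over the 7 between 0.0205 and 0.116). miR-26b of the same list, with a log2 difference of -1.99, missed the threshold on the deposited scale (limma adjusted p = 0.0586). It passed as lower under 5 of the 7 other scalings (limma adjusted p over the 7 between 0.0329 and 0.181). The 3 most abundant were miR-16, a brake on the cell cycle, with a log2 difference of -0.81 (limma adjusted p = 0.152), let-7a with 0.11 and let-7d with -0.39. The split was 6 positive and 10 negative with the median of tested miRNAs made equal, and 0 positive and 16 negative with mRNA probes or positive controls. The median of all tested miRNAs moved with these scalings. In each of them 4 of the 16 lay above it, a position that 1 factor per sample leaves nearly fixed. Embryonic stem cell clusters, in which some miRNAs have related seeds, among them miR-294, miR-302a and miR-367, had 16 probes, of which 0 were tested. Their summed signal, over both arms where both had probes, was 93.5 and 100.4 in oncogenic and 84.3 and 109 in normal samples.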

How the data were processed

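Total RNA of 4 samples was measured with nanoString's nCounter miRNA assay, per the labels' protocols. The deposited table holds 1 signal column per sample, normalized by the authors. Their method is not given in the sources used here. By a test of the numbers themselves, the deposited signal of all 603 miRNA, mRNA and viral probes was a whole count times 1 factor per sample (100% whole within 0.1 count), the factors being 0.874 and 1.76 for oncogenic and 0.878 and 0.861 for normal samples. A normalized count of 30 thus rests on 17 barcodes in oncogenic replicate 2 and on 34.2 to 34.8 in the other samples. Intervals cover counting error only.

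limma (3.58.1, R 4.3.3; lmFit, eBayes with trend, two-sided) was run on log2(value + 1) for the 124 miRNAs that reached 30 in 2 or more samples, with Benjamini-Hochberg adjustment over all of them; differences on this scale understate changes of low miRNAs. edgeR (4.0.16) and DESeq2 (1.42.0) on recovered counts were alternatives, and edgeR with TMM called 1 miRNA. Named miRNAs were all cluster probes, the third paralog, and tested or listed probes with a member's seed. Also named were the nearest profile of each tested member and 3 of the Myc list. miR-32, miR-367, miR-294, miR-302a, miR-146a, miR-26b and the markers were named beyond these. The members and lists were chosen with earlier results of these data known. Mature sequences are from RefSeq, GRCm38.p6, where 442 of 566 probe names matched a mature name. In this match and in the search for a member's seed, a probe name without an arm was compared with either arm. The sequences shown for the members are of the main arm. Opposite arms were not analysed here, except where the marker and stem cell cluster lists held probes of both arms.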

Additional observations from a re-analysis of the deposited data

How the results depend on the processing

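None of the 4 tested cluster probes passed the threshold under any of the 21 alternatives, which with 2 samples a group is no sign that they are unchanged. The count over all tested miRNAs, 5 as reported, was 8 with medians made equal or the 100 most abundant miRNAs (5 lower and 3 higher in each), 3 with quantile normalization or positive control probes, 1 in edgeR with TMM, 11 in DESeq2, and between 1 and 26 with 1 sample left out. The count reached 26 without oncogenic replicate 1 and 10 without oncogenic replicate 2. The median of all differences was 0.34 with medians made equal, 0.21 with the 100 most abundant miRNAs and -0.60 with the mRNA probes. The sample medians gave p = 0.333 in an exact two-sided permutation test, the smallest that 2 against 2 samples allow.

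The replicate number is not stated to pair samples. Over the 124 miRNAs, the difference of replicate 1 minus 2 correlated between the groups (r = 0.66), and with the replicate number as a block 30 miRNAs passed, 24 lower and 6 higher. No cluster probe was among them (adjusted p from 0.426 to 0.889), while miR-25 passed (adjusted p = 0.0196, and 0.00558 relative to the 17-with-106a probe).

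For the 20a-with-20b probe the difference turned to 0.43, 0.30 and 0.17 with medians made equal, the 100 most abundant miRNAs and quantile normalization, 0.27 in edgeR and 0.21 in DESeq2. For miR-93 the same settings gave 0.30, 0.17, 0.22, 0.14 and 0.072. The 17-with-106a probe turned to -0.024 with the mRNA probes. Relative to that probe, with 1 sample left out, miR-19a ranged from -0.38 (without oncogenic replicate 1) to 0.59 (without oncogenic replicate 2) and miR-19b from -0.30 to 0.39 in the same settings, and without normal replicate 2 they were -0.28 and -0.19. The cause of these turns was not tested. Without a filter the 5 low cluster probes had adjusted p from 0.490 to 0.963. They rest on 1 to 13 barcodes per sample.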
